A study of Oryza sativa Indica Group with 27 samples.

Results

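The silicon transport genes of rice were followed in young seedlings under salt: NIP2-1 (also called Lsi1, LOC4330713), Lsi2 (LOC4331328) and NIP2-2 (also called Lsi6, LOC4340558). The members were found by gene symbol or synonym, with or without the Os prefix, and all 3 genes were measured, each by 1 probe set out of 57194 tested. The NIP2-2 probe set has an ID ending in _x_at, which marks probes that can also match other transcripts, so its level may hold signal of another gene. The other 2 probe sets carry no such mark.

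Rice takes up more silicon than most plants and lays it down as silica in its leaves and husks. NIP2-1 is an aquaporin-like channel through which silicic acid enters root cells, and Lsi2 is an efflux transporter that passes it on towards the stele. Both proteins sit in the exodermis and endodermis of the root, NIP2-1 on the outer side of the cells and Lsi2 on the inner side. NIP2-2, the closest relative of NIP2-1, unloads silicic acid from the xylem in leaf sheaths, blades and nodes and is also made in root tips. The route of NIP2-1 and Lsi2 also carries arsenite.

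Whole seedlings of the indica cultivars Nonabokra and Pokkali, which tolerate salt, and IR29, which is susceptible, were grown in liquid medium to 7 days of age. They then stood for 3 h or 6 h in 200 mM NaCl, while the unstressed controls spent 6 h in growth medium. This gave 9 groups of 3 arrays, labelled as biological replicates, on single-colour Affymetrix rice arrays. One label field of the 3 h samples mentions drought. Their titles and characteristics name salt, which was followed here. The labels do not say whether the salt solution held the nutrients of the growth medium, and no control was harvested at 3 h. Salt therefore cannot be told apart from the change of solution, nor, at 3 h, from the hour of harvest. In RNA of whole seedlings fewer root cells and less transcript per cell cannot be told apart either.

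Median intensities of the arrays ran from 7.09 to 7.77. Unstressed IR29 had the highest group mean of these medians, 7.59, against 7.12 to 7.33 in the other groups. On each array 28.8% to 29.7% of probe sets exceeded 100, so the median is that of dim probe sets. The poly-A spikes, transcripts added to the RNA before labelling, had a mean log2 level of 9.04, 8.43 and 7.15 in Nonabokra at 0 h, 3 h and 6 h of salt, 8.88, 8.36 and 7.46 in Pokkali, and 8.73, 8.25 and 7.29 in IR29. These levels moved with the time in salt in the same order in each cultivar, and their part in the results below was not tested. The control probe set for 18S rRNA averaged 2686 in IR29 without salt, 28.3 after 3 h and 102 after 6 h. There the log2 ratio of the actin 5′ to 3′ probe sets was -4.48, -5.68 and -5.24. In Pokkali the 18S set averaged 1263, 703 and 187 and the actin ratio -4.48, -5.15 and -5.24, and in Nonabokra they were 415, 312 and 360, and -4.39, -4.72 and -4.75. The part of these signs in the results was not tested either.

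NIP2-1 fell in all 3 cultivars within 3 h, most in IR29, and was partly back by 6 h. In Nonabokra its probe set had intensities of 5595, 6228 and 6136 on the 3 unstressed arrays, 1392, 1315 and 1371 after 3 h, and 3141, 3029.5 and 3260.4 after 6 h. In Pokkali the values were 3421, 3422 and 3523 unstressed, 941, 800.04 and 844 after 3 h, and 1847, 1997 and 1915 after 6 h. In IR29 they were 6151, 6933 and 7019.8 unstressed, 309, 317 and 276 after 3 h, and 1107, 1086 and 944 after 6 h. Within each cultivar the 3 groups did not overlap, with the 3 h arrays lowest and the 6 h arrays between them and the controls. At 3 h Nonabokra kept 22.7% of its unstressed mean, Pokkali 24.9% and IR29 4.48%. At 6 h these shares were 52.5%, 55.6% and 15.6%.

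Each change below is a difference between groups on the log2(intensity + 16) scale, ± its standard error from limma. A change is called where the p-value, adjusted over all probe sets, is under 0.05. At 3 h of salt against control NIP2-1 fell by 2.12 ± 0.07 in Nonabokra (adjusted p = 2.1e-15), by 1.99 ± 0.07 in Pokkali (adjusted p = 9.3e-15) and by 4.41 ± 0.07 in IR29 (adjusted p = 9.8e-20), with all salt arrays below all controls each time. The fall in IR29 was the largest of all 57194 probe sets in that comparison, a place that moved to 4 with a pseudocount of 1 and to 2 with quantile normalization or without any one of 3 arrays (IR29 control replicates 2 and 3 and 3 h replicate 3). Counted from the deepest fall, NIP2-1 held place 267 in Nonabokra and 274 in Pokkali. At 6 h NIP2-1 was lower than control by 0.92 ± 0.07 in Nonabokra, 0.84 ± 0.07 in Pokkali and 2.66 ± 0.07 in IR29 (adjusted p = 1.6e-09, 7.5e-09 and 2.6e-16). From its level at 3 h it was higher at 6 h by 1.20, 1.14 and 1.75 in the same order of cultivars (SE 0.07 each, adjusted p = 5.7e-11, 1.4e-10 and 5.7e-13).

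**Figure D1:**
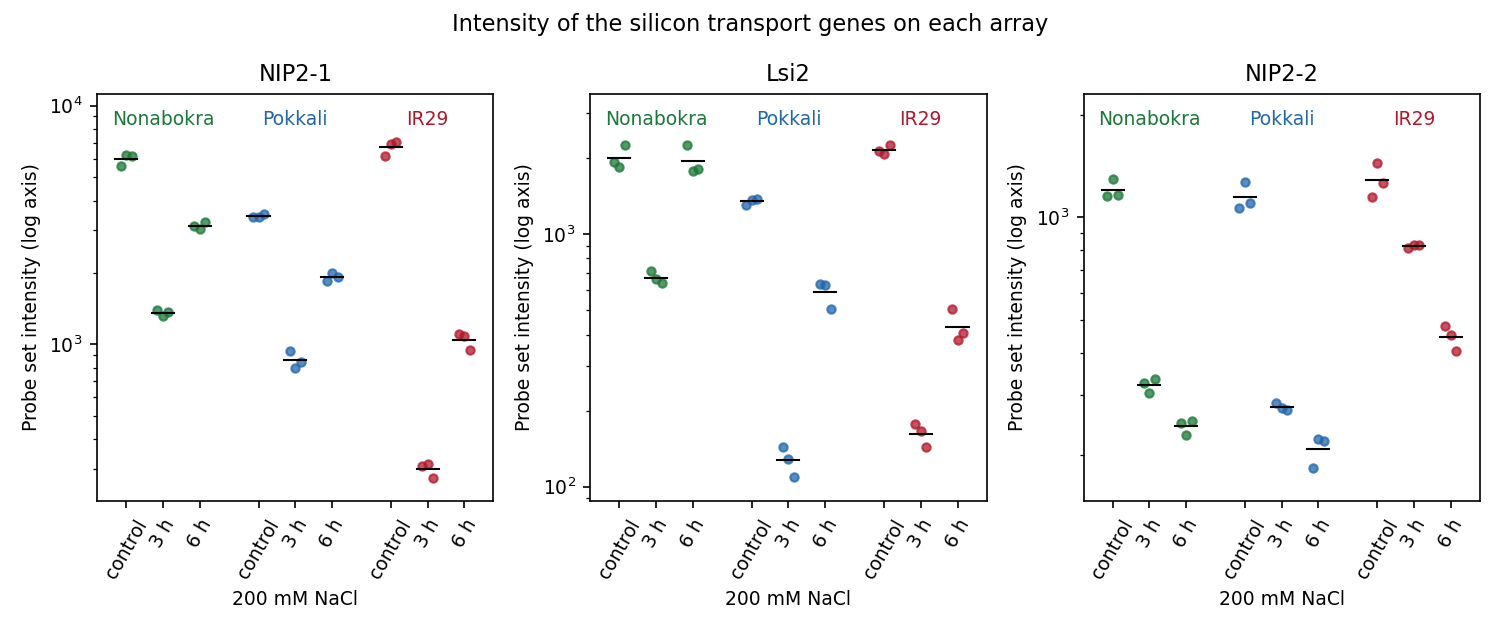
Probe set intensity (log axis) of NIP2-1, Lsi2 and NIP2-2 on each of the 27 arrays, by cultivar and hours in 200 mM NaCl, with a black line at the mean of each group of 3. NIP2-1 and Lsi2 are lowest at 3 h in every cultivar, whereas NIP2-2 is lowest at 6 h.

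Lsi2, the partner of NIP2-1 in the root, also reached its lowest level at 3 h, but its course differed between the cultivars. In Nonabokra its intensities were 1921, 1841.5 and 2246 unstressed, 711, 665 and 641 after 3 h, and 2240.5, 1779 and 1808 after 6 h. The 6 h arrays overlapped the controls there, and the 3 h arrays lay apart from both. In Pokkali the values were 1301, 1367 and 1377 unstressed, 144, 128 and 109.5 after 3 h, and 635, 629 and 504 after 6 h. In IR29 they were 2129, 2079 and 2248 unstressed, 177, 166 and 143 after 3 h, and 504, 380.1 and 406 after 6 h. In these last 2 cultivars none of the 3 groups overlapped. At 3 h Nonabokra kept 33.6% of its unstressed mean, Pokkali 9.44% and IR29 7.53%. The shares at 6 h were 97.0%, 43.7% and 20.0%.

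At 3 h of salt against control Lsi2 fell by 1.55 ± 0.12 in Nonabokra (adjusted p = 1.3e-09), by 3.26 ± 0.12 in Pokkali (adjusted p = 2.0e-14) and by 3.61 ± 0.12 in IR29 (adjusted p = 5.5e-15). Its fall held place 38 among all probe sets in Pokkali and 11 in IR29, the second of which moved to 21 with a pseudocount of 1 and to 7 with 64. At 6 h Lsi2 was lower than control by 1.18 ± 0.12 in Pokkali and by 2.29 ± 0.12 in IR29 (adjusted p = 1.5e-07 and 9.6e-12). In Nonabokra at 6 h the change did not pass, with -0.05 ± 0.12 and a 95% interval from -0.29 to 0.20 (adjusted p = 0.85). Without control replicate 3 its value there was 0.04, with the opposite sign. Against 3 h, Lsi2 was higher at 6 h by 1.50 in Nonabokra, 2.08 in Pokkali and 1.32 in IR29 (SE 0.12 each, adjusted p = 6.0e-09, 6.8e-11 and 9.5e-08).

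NIP2-2 took another course, with lower levels at 6 h than at 3 h in each cultivar. Its intensities in Nonabokra were 1156, 1293 and 1160.3 unstressed, 325, 306 and 335 after 3 h, and 248, 229.9 and 253 after 6 h. In Pokkali they were 1068, 1266 and 1098 unstressed, 284, 276 and 271 after 3 h, and 183, 223 and 220.5 after 6 h. In IR29 they were 1147, 1442 and 1256 unstressed, 811, 826 and 828 after 3 h, and 479, 451 and 405 after 6 h. No group overlapped another of the same cultivar, and the order ran downwards with time in each. At 3 h Nonabokra kept 26.8% of its unstressed mean, Pokkali 24.2% and IR29 64.1%. The shares at 6 h were 20.3%, 18.3% and 34.7%.

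At 3 h of salt against control NIP2-2 fell by 1.85 ± 0.08 in Nonabokra, by 1.98 ± 0.08 in Pokkali and by 0.63 ± 0.08 in IR29 (adjusted p = 4.2e-13, 2.1e-13 and 5.8e-06). The changes at 6 h against control were -2.23, -2.37 and -1.49 for these cultivars, each ± 0.08 (adjusted p = 4.7e-14, 2.8e-14 and 3.7e-11). The fall in Pokkali at 6 h held place 48 among all probe sets. NIP2-2 lost further ground between the times, with 6 h lower than 3 h by 0.38 in Nonabokra, 0.39 in Pokkali and 0.87 in IR29 (SE 0.08 each, adjusted p = 0.0018, 0.0018 and 2.9e-07).

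Counted together, the 3 genes gave 17 called falls in 18 comparisons of salt with control, none higher, and 1 that did not pass. The groups compared did not overlap in those 17. How often this held among all probe sets was not counted, so it adds no evidence to the calls. Calls were common in these data, so the counts are read beside the share of all probe sets called lower: at 3 h Nonabokra had 14.9%, Pokkali 13.4% and IR29 48.2%, and at 6 h the shares were 12.2%, 12.1% and 41.4%. The median change at 3 h in IR29 was -3.61 over the 3 genes and -0.01 over all probe sets. Which way the IR29 calls lean depended on scaling. Lower calls were 75.4% of all calls at 3 h and 77.5% at 6 h as deposited, 59.2% and 59.9% after quantile normalization, and 25.2% and 31.1% after median centring. The falls of the 3 genes in IR29 were called under each of these. The 17 called falls also held without each array in turn. For 6 h against 3 h, 6 of the 9 comparisons were called higher and 3 lower, those of NIP2-2. In that contrast 10.2%, 11.1% and 6.64% of all probe sets were called higher in Nonabokra, Pokkali and IR29, and 10.9%, 17.1% and 8.14% lower. In Pokkali 60.5% of those calls were lower as deposited and 42.9% after median centring.

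**Figure D2:**
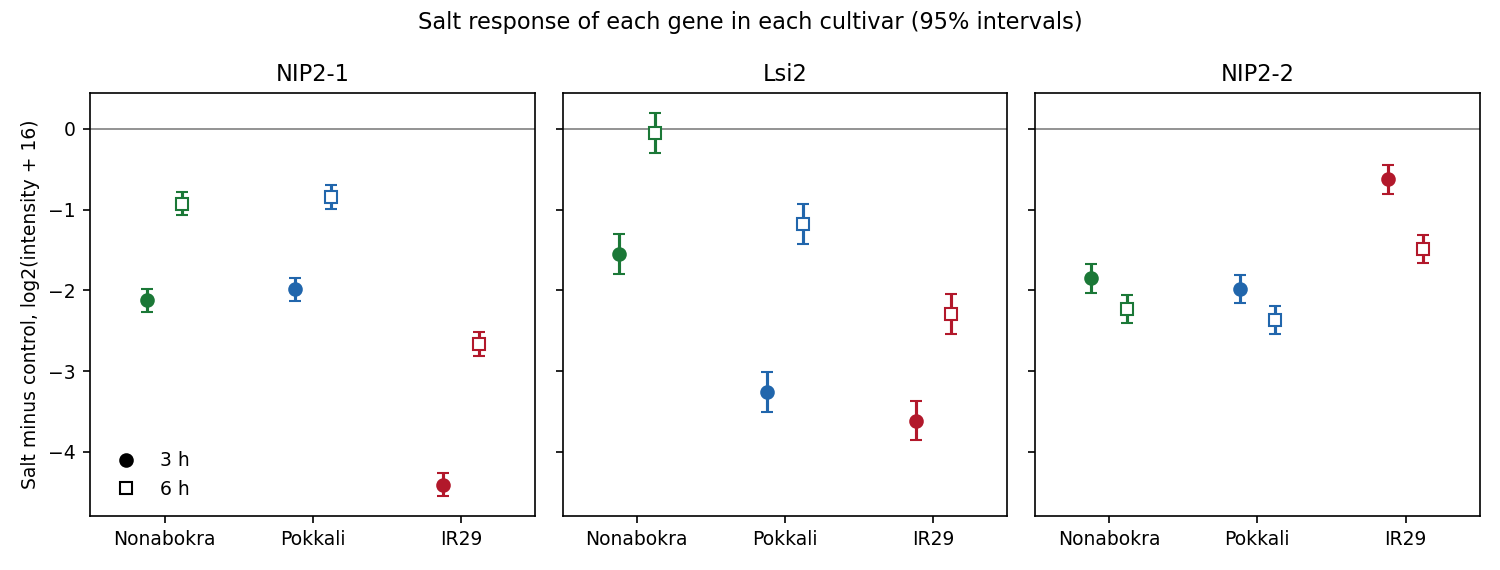
Change of NIP2-1, Lsi2 and NIP2-2 after 3 h (filled circles) and 6 h (open squares) of salt relative to unstressed seedlings, as differences of log2(intensity + 16) with 95% intervals, n = 3 arrays a group. The interval of Lsi2 in Nonabokra at 6 h includes 0, and those of the other 17 comparisons lie below 0.

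The cultivars differed in these responses: relative to IR29, Nonabokra and Pokkali had the smaller fall of NIP2-1 and the deeper fall of NIP2-2. IR29 was the only susceptible cultivar, so salt tolerance cannot be told apart from its other traits. For NIP2-1 the log2 change at 3 h was higher, that is a smaller fall, in Nonabokra than in IR29 by 2.28 ± 0.10 and in Pokkali than in IR29 by 2.42 ± 0.10 (interaction in limma, adjusted p = 8.3e-13 and 4.7e-13). At 6 h the differences were 1.74 ± 0.10 and 1.82 ± 0.10 (adjusted p = 7.1e-11 and 3.9e-11). Between Nonabokra and Pokkali the difference did not pass at 3 h, with -0.14 and a 95% interval from -0.34 to 0.07 (adjusted p = 0.55), or at 6 h, with -0.08 and an interval from -0.28 to 0.12 (adjusted p = 0.74). With quantile normalization the difference at 6 h was 0.04.

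For NIP2-2 the difference from IR29 was -1.23 ± 0.12 in Nonabokra and -1.36 ± 0.12 in Pokkali at 3 h (adjusted p = 1.7e-07 and 4.1e-08), and -0.74 ± 0.12 and -0.88 ± 0.12 at 6 h (adjusted p = 0.00013 and 1.9e-05). Nonabokra and Pokkali differed by 0.13 at 3 h, with an interval from -0.12 to 0.38, and by 0.14 at 6 h, with an interval from -0.11 to 0.38, which did not pass (adjusted p = 0.68 and 0.65).

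Lsi2 set Nonabokra apart from both other cultivars. Its change at 3 h was higher in Nonabokra than in IR29 by 2.06 ± 0.17 and than in Pokkali by 1.71 ± 0.17 (adjusted p = 1.3e-08 and 2.6e-07). The difference between Pokkali and IR29 at 3 h was 0.35 ± 0.17 and did not pass (adjusted p = 0.086), although its interval ran from 0.004 to 0.70 and it passed with a pseudocount of 64. At 6 h the 3 cultivars were graded: Nonabokra was higher than Pokkali by 1.13 ± 0.17, Pokkali was higher than IR29 by 1.11 ± 0.17, and Nonabokra was higher than IR29 by 2.24 ± 0.17 (adjusted p = 5.1e-05, 6.3e-05 and 5.1e-09).

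Of the 18 response differences for the 3 genes, 9 were called higher, 4 lower and 5 did not pass. At 3 h, 14.6% of all probe sets were called higher and 10.8% lower for Nonabokra minus IR29, 34.8% and 12.2% for Pokkali minus IR29, and 6.76% and 5.91% for Nonabokra minus Pokkali. At 6 h the shares were 7.3% and 8.93%, 5.99% and 6.81%, and 5.76% and 7.92%. Of the calls for Pokkali minus IR29 at 3 h, 25.9% were lower as deposited, 43.5% after quantile normalization and 78.5% after median centring, and for Nonabokra minus IR29 at 3 h 42.4% as deposited and 67.3% after median centring. Each response difference shares its arrays with others, so the differences are not independent of each other.

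**Figure D3:**
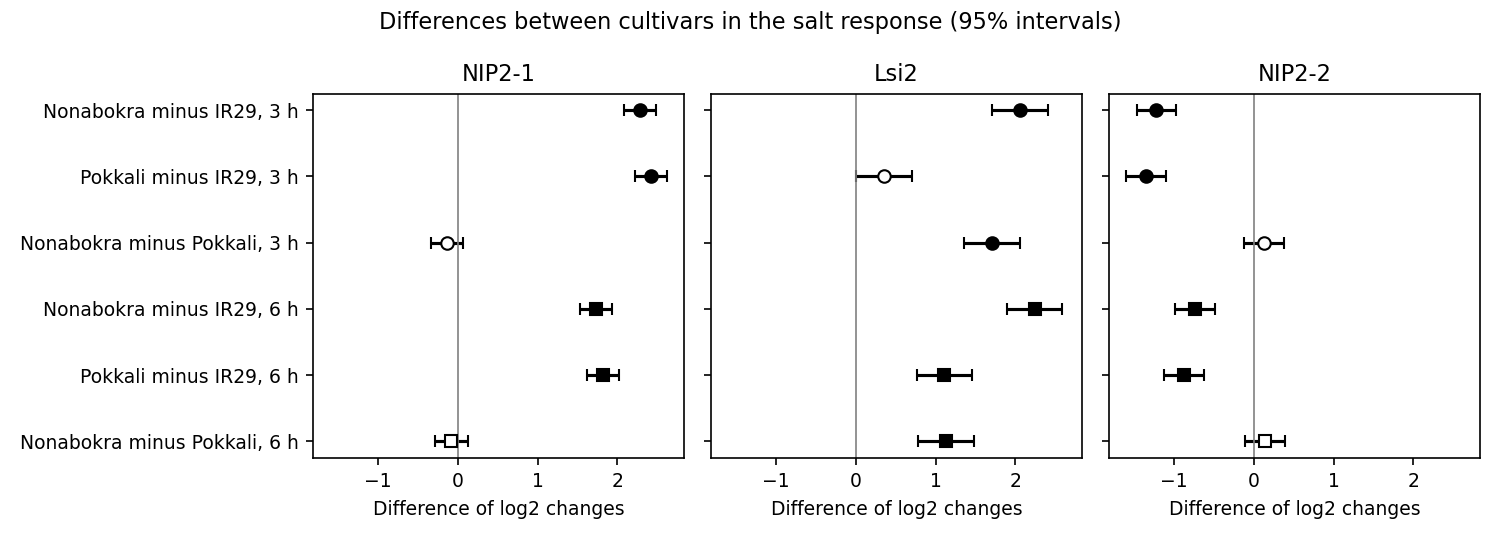
Differences between cultivars in the salt response of NIP2-1, Lsi2 and NIP2-2, as differences of log2 changes with 95% intervals at 3 h (circles) and 6 h (squares); filled symbols passed the test. NIP2-1 lies right of 0 and NIP2-2 left of 0 where IR29 is the cultivar subtracted, and Lsi2 differs between Nonabokra and Pokkali at both times.

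Before salt, Pokkali had lower NIP2-1 and Lsi2 intensities than the other cultivars. Each gene was read by 1 probe set, and whether its probes match the 3 cultivars alike was not tested. NIP2-1 averaged 3455 ± 58.6 in unstressed Pokkali against 6701 ± 479 in IR29 (SD, n = 3 each), a difference of -0.95 ± 0.07 (adjusted p = 7.2e-10). Nonabokra, at 5986 ± 342, was higher than Pokkali by 0.79 ± 0.07 (adjusted p = 2.0e-08), and its difference from IR29 of -0.16 ± 0.07 did not pass (adjusted p = 0.052). Lsi2 averaged 1348 ± 41.3 in Pokkali against 2152 ± 86.5 in IR29, a difference of -0.67 ± 0.12 (adjusted p = 0.00014). Nonabokra, at 2003 ± 214, was higher than Pokkali by 0.56 ± 0.12 (adjusted p = 0.0012), a call that was lost in a fit to these 6 arrays alone with the replicate number as a block (adjusted p = 0.061). It was -0.11 ± 0.12 from IR29 and did not pass (adjusted p = 0.47).

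Unstressed NIP2-2 was not shown to differ between the cultivars. It averaged 1203 ± 77.7 in Nonabokra, 1144 ± 107 in Pokkali and 1282 ± 149 in IR29, and all their ranges overlapped. The difference was -0.09 with an interval from -0.26 to 0.09 for Nonabokra minus IR29, -0.16 with an interval from -0.34 to 0.02 for Pokkali minus IR29, and 0.07 with an interval from -0.10 to 0.25 for Nonabokra minus Pokkali (adjusted p = 0.41, 0.11 and 0.93). Without IR29 control replicate 1 the difference of Pokkali from IR29 was -0.24 and passed (adjusted p = 0.037), and it also passed without Pokkali control replicate 2. Over the 3 genes 4 of the 9 unstressed differences were called. Among all probe sets 56% were called for Nonabokra minus IR29, 61.9% for Pokkali minus IR29 and 19.4% for Nonabokra minus Pokkali. Lower calls were 76.1% and 73.6% of those against IR29 as deposited, 59.0% and 54.3% after quantile normalization, and 24.6% and 24.8% after median centring.

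Ordered by mean intensity, NIP2-1 ran from unstressed IR29 and Nonabokra, whose ranges overlapped, through unstressed Pokkali, Nonabokra at 6 h, Pokkali at 6 h, Nonabokra at 3 h, IR29 at 6 h and Pokkali at 3 h to IR29 at 3 h. After the first pair no neighbours overlapped. For Lsi2 the overlapping neighbours were unstressed IR29, unstressed Nonabokra and Nonabokra at 6 h at the top, and IR29 at 3 h and Pokkali at 3 h at the bottom. Between them stood, without overlap, unstressed Pokkali, Nonabokra at 3 h, Pokkali at 6 h and IR29 at 6 h. For NIP2-2 the 3 unstressed groups overlapped, and the 6 salt groups followed without overlap: IR29 at 3 h and 6 h, Nonabokra and Pokkali at 3 h, then Nonabokra and Pokkali at 6 h. The salt groups of NIP2-1 thus had IR29 at 3 h lowest, where those of NIP2-2 had IR29 at 3 h highest.

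Other NIP genes were measured only in part. Of 11 further names fixed for the family (Lsi3 and 10 other NIP genes), 3 had a probe set, and NIP1-1 was the only one of these with an intensity above 100 in any group. NIP1-1, a channel of the first NIP subgroup, averaged 999 ± 49.2 at 3 h of salt against 1149 ± 48.1 unstressed in Nonabokra (SD), 899 against 1054 in Pokkali and 1135 against 1339 in IR29. Those changes of -0.20, -0.23 and -0.24 passed. At 6 h it was higher by 0.29 in Nonabokra, with -0.04 in Pokkali and 0.05 in IR29, which did not pass. NIP3-1 and NIP4-1 had mean intensities of 6.79 or less in every group, under every array median. Their changes at 3 h in IR29, -0.02 each, passed as deposited, but not after median centring, where that of NIP4-1 turned to 0.0032.

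NRAMP5, the manganese and cadmium influx transporter of the root exodermis and endodermis, fell in all 6 comparisons. It averaged 484 unstressed, 205 at 3 h and 294 at 6 h in Nonabokra, 1191, 305 and 667 in Pokkali, and 749, 308 and 389 in IR29. Its log2 changes in Nonabokra, Pokkali and IR29 were -1.18, -1.91 and -1.24 after 3 h, and -0.69, -0.82 and -0.92 after 6 h. Its lowest level was thus at 3 h in every cultivar, like that of NIP2-1 and Lsi2. Of 10 names fixed for mineral transport, NRAMP5 and HMA2 had a probe set, and HMA2, a zinc and cadmium transporter of the vascular tissue, had mean intensities of 15.5 or less in every group. At these low levels HMA2 was called higher at 3 h in Nonabokra, by 0.24, and in IR29, by 0.24, and did not pass in the other 4 comparisons. The call in Nonabokra was lost after quantile normalization (adjusted p = 0.05).

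Markers of root and green tissue were set beside these changes, since NIP2-1 and Lsi2 are root genes. Of 17 measured root markers, 6 rose and 3 fell in Nonabokra at 3 h, 4 rose and 5 fell in Pokkali, and 4 rose and 9 fell in IR29. Among all probe sets 13%, 11.8% and 15.7% were called higher in Nonabokra, Pokkali and IR29 at 3 h, and 14.9%, 13.4% and 48.2% lower. At 6 h the counts of root markers were 5 and 5, 3 and 5, and 2 and 10, beside 10.2%, 10.1% and 12% of all probe sets called higher and 12.2%, 12.1% and 41.4% lower. As deposited, the 9 of 17 lower in IR29 at 3 h thus lay near the share of all probe sets. The median change of the 17 lay between -0.09 and 0.00 in these 6 comparisons, but many of the 17 were dim, as counted below. In IR29 at 3 h the largest falls among them were those of IRT1 (-2.62), YSL15 (-2.16), AKT1 (-1.74) and NRAMP5 (-1.24). IRT1 is an iron transporter, YSL15 an iron-phytosiderophore transporter and AKT1 a potassium channel. Unstressed IRT1 averaged 512 in IR29, but 12.3 in Nonabokra and 35.8 in Pokkali. Unstressed YSL15 averaged 3143, 15.7 and 19.0 in the same order, so both were already dim in those 2 cultivars before salt. CASP1, a protein of the Casparian strip in the endodermis, changed at 3 h by -0.82 in IR29, 0.70 in Nonabokra and 0.97 in Pokkali. Its means were dim in Nonabokra, 11.2 unstressed and 28.4 at 3 h, against 132 and 276 in Pokkali, and 130 and 67.0 in IR29. AMT1-1, an ammonium transporter, rose by 0.97 in IR29 at 3 h. Under quantile normalization and median centring the counts at 3 h in IR29 were 3 and 8, and 5 and 8. Of all 57194 probe sets, 8258 were called higher and 11970 lower under the first, and 25666 higher and 8653 lower under the second. The nearness of the lower root markers to the share of all probe sets thus depended on the scaling.

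The summed intensity of the root markers lay between 33824 and 34412 in unstressed IR29, between 37171 and 39690.4 at 3 h, and between 14770.1 and 15201 at 6 h. Without NAS1 and NAS2, nicotianamine synthases of iron uptake, the sums were 11905 to 12503, 8721 to 9175 and 8245 to 8922. In Nonabokra the full sum was 6896 to 7140.5 unstressed, 8791 to 8992 at 3 h and 7453 to 7941 at 6 h. In Pokkali it was 9326 to 9523, 10488 to 10844 and 9197 to 9722. The sums at 3 h were thus above those of the controls in each cultivar with all 17 markers, and below them in IR29 without the 2 synthases. Single bright probe sets carried much of these sums. The probe set matched to the symbol TOM1 averaged 6328 at 3 h against 4977 unstressed in Nonabokra and 7003 against 5512 in Pokkali. Whether it reads the root transporter gene of that name was not checked. YSL15 averaged 699 at 3 h against 3143 unstressed in IR29. Between 1 and 3 of the 17 markers had group means below the array median, with IRT2, an iron transporter, among them in every group. Group means under 100 were found for 10 or 11 of the 17 in each group of Nonabokra and Pokkali. In IR29 they were found for 5 unstressed, 8 at 3 h and 6 at 6 h. The log2 scale used compresses changes of dim markers, so the list's counts and median change read root content only weakly. The part of the root share in the changes of NIP2-1 and Lsi2 was not tested.

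Of 10 measured markers of green tissue, 2 rose and 4 fell in Nonabokra at 3 h, 2 and 3 in Pokkali, and 2 and 4 in IR29. Of all probe sets 13%, 11.8% and 15.7% were called higher in these comparisons, and 14.9%, 13.4% and 48.2% lower. At 6 h the counts were 1 and 6, 1 and 4, and 3 and 4, beside 10.2%, 10.1% and 12% of all probe sets higher and 12.2%, 12.1% and 41.4% lower. In IR29 as deposited, the 4 of 10 lower at each time lay near the 48.2% and 41.4% of all probe sets called lower. After median centring 4 were lower at 3 h and 3 at 6 h, beside 8653 and 6910 of all 57194 probe sets. After quantile normalization they were again 4 and 3, beside 11970 and 9099. This nearness thus depended on the scaling. At 3 h the probe set matched to the symbol PSAG rose by 2.69, 2.24 and 1.63 in Nonabokra, Pokkali and IR29. Whether it reads the photosystem I subunit gene of that name was not checked. CHLD, a subunit of the chlorophyll pathway's magnesium chelatase, changed at 3 h by -1.43, -1.44 and -0.65. The summed intensity of the list lay between 122600 and 125062 in unstressed IR29, between 124552 and 130719 at 3 h, and between 130457 and 133799 at 6 h. None of the 10 had a group mean below the array median, and 2 had a mean under 100 in each group.

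**Figure D4:**
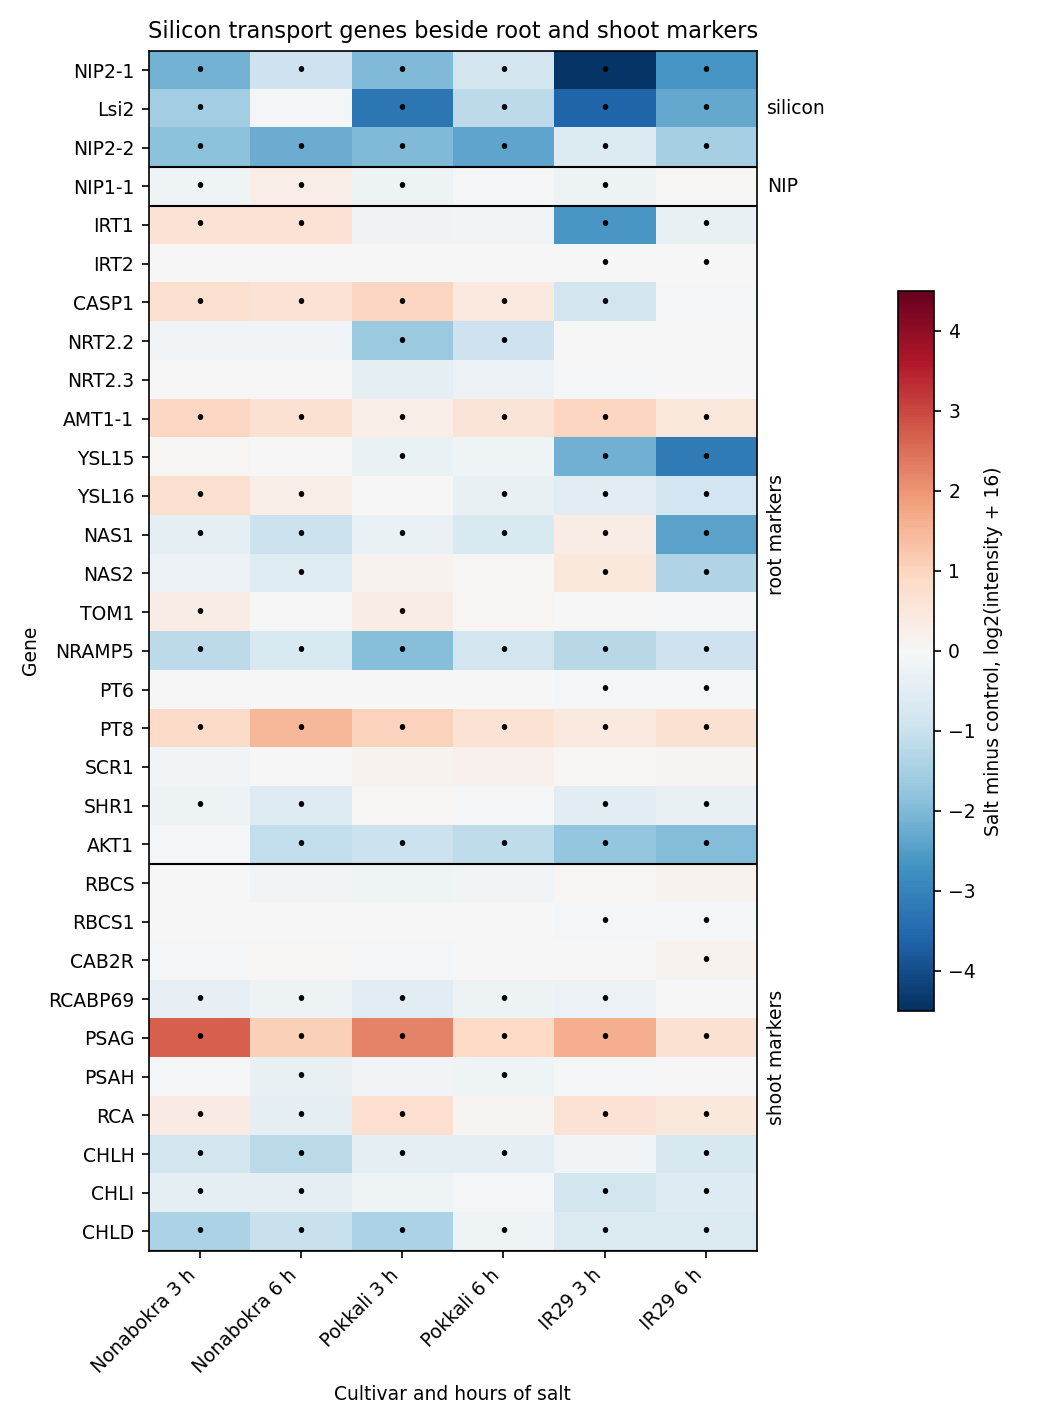
Changes in each cultivar between salt (3 h or 6 h) and control, on the log2(intensity + 16) scale, for the silicon transport genes, NIP1-1, 17 root markers and 10 markers of green tissue, with a dot where a change passed the test. NIP2-1, Lsi2 and NIP2-2 are blue (lower) in every column but Lsi2 in Nonabokra at 6 h, while root markers hold both colours.

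Profiles like those of the silicon genes were sought among 2016 genes with a readable name, by Pearson correlation over the 27 arrays. The arrays come as 9 groups that share their harvests, so the values describe likeness only. NIP2-1 was the gene most like Lsi2 (r = 0.92). Over the 9 group means it held place 3 at 0.92, after OsTATC (0.95) and TUBC (0.93). NIP2-2 correlated with NIP2-1 at 0.36 and with Lsi2 at 0.37. For NIP2-1 the list read oRrp46, an exosome subunit (0.95), MAGO2 of the exon junction complex (0.93), TIM13 of mitochondrial protein import (0.93), the copper transporter COPT1 (0.93) and the initiation factor eIF3k (0.92). Lsi2 shared oRrp46 and TIM13 (0.88 each) and was followed by 60SP0, a ribosomal stalk protein (0.87), and GPB-LR (0.86). For NIP2-2 it read CYCB1-1, a mitotic cyclin (0.92), OsCel9E, a cellulase (0.92), FALDH, a formaldehyde dehydrogenase (0.91), GF14E, a 14-3-3 protein (0.91), and CYCD5-2, a D-type cyclin (0.90).

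A like profile did not mean a like size of change. Among the 5 genes nearest to NIP2-1, COPT1 had the largest fall in IR29 at 3 h, -2.68, with mean intensities of 2632 unstressed, 397 at 3 h and 565 at 6 h. It averaged 1861, 937 and 1378 in Nonabokra, and 1155, 975 and 1166 in Pokkali, where the 6 h mean did not lie below the control. MAGO2, by contrast, averaged 2119, 1409 and 1659 in IR29. CYCB1-1, nearest to NIP2-2, averaged 382 at 6 h in Nonabokra against 896 unstressed, 456 against 892 in Pokkali and 709.5 against 1029.6 in IR29, so the highest share of the unstressed mean was in IR29, as for NIP2-2.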

How the data were processed

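The authors deposited linear intensities per probe set of an Affymetrix rice array. The submitters' processing notes name GCOS, and how probes were summarised and arrays normalised is not given in the sources used here. Values were used without rescaling. limma 3.58.1 in R 4.3.3 was fitted to log2(intensity + 16), a scale that compresses changes of dim probe sets. The model had 1 mean per group over 27 arrays (18 residual degrees of freedom). P-values of each of 18 comparisons were adjusted by Benjamini and Hochberg's method across the 57194 probe sets tested, with a threshold of 0.05. The fit was run on simulated data with independent normal noise. That noise held no shift of whole groups of arrays and no likeness of same-numbered arrays, so the run does not test either. The table holds 57381 probe sets, of which 187 controls were left out. No 2 arrays held identical values.

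Probe sets were named through the platform annotation and RefSeq synonyms. A gene with several probe sets was represented by the brightest. Of 29 root marker names 17 were used (4 matched several genes), of 40 names for green tissue 10, since FBA1 matched the cytosolic enzyme and 28 names were not matched. The members and lists were chosen with earlier results of these data known. Named were the members, their family, related transport genes, up to 4 genes of a marker list per comparison and the 5 genes most like each member among those reaching a group mean of 100, with CASP1, IRT2, AMT1-1 and TOM1 singled out after their values were seen.

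Groups share replicate numbers 1 to 3. In 2 of 36 pairs of groups every correlation between residuals of same-numbered arrays exceeded 0.1: unstressed Nonabokra with Pokkali (0.469, 0.16 and 0.192), and Nonabokra with IR29 at 6 h (0.724, 0.423 and 0.397). No label ties a number to a culture or day, so this pairing rests on the data. The labels call replicates biological without naming separate cultures, so p-values measure the spread between these samples. Arrays have no depth, and their number limits the precision. Alternatives were pseudocounts of 1 and 64, quantile normalization, median centring, a filter on the dimmest 40%, an intensity trend, a fit to the compared groups, a replicate block and leaving out each array.
Member protein and promoter sequences were not analysed here.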

Additional observations from a re-analysis of the deposited data

Results flagged for a closer look

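The salt response of the silicon transport genes differed between cultivars in 13 of 18 cases. This was by a test of the difference itself, on the log2 scale and with limma's interaction term. Over these comparisons 5.76% to 34.8% of all probe sets were called higher and 5.91% to 12.2% lower. The 18 differences share arrays and are not independent. Which way the calls over all probe sets leaned against IR29 at 3 h depended on scaling. For NIP2-1 the response of Nonabokra minus that of IR29 was 2.28 at 3 h and 1.74 at 6 h, and that of Pokkali minus IR29 was 2.42 and 1.82. For NIP2-2 the same differences were negative, with -1.23 and -0.74 for Nonabokra minus IR29 and -1.36 and -0.88 for Pokkali minus IR29. For Lsi2 they were 2.06 at 3 h and 2.24 at 6 h for Nonabokra minus IR29, 1.71 and 1.13 for Nonabokra minus Pokkali, and 1.11 at 6 h for Pokkali minus IR29. The largest adjusted p among the 13 was 0.00013.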

How the results depend on the processing

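All 17 called falls of the 3 genes under salt and all 9 changes from 3 h to 6 h kept their direction and call under every alternative run and without each array in turn, as did the 13 called differences between cultivars in response. Calls changed among unstressed differences and 1 response difference, and the cause was not tested. The unstressed difference of NIP2-1, Nonabokra minus IR29, passed with a pseudocount of 64 (-0.16, adjusted p = 0.045), quantile normalization (-0.19, adjusted p = 0.049) and an intensity trend (-0.16, adjusted p = 0.048), and ranged from -0.22 to -0.11 when arrays were left out, passing without IR29 control replicate 1. That of NIP2-2, Pokkali minus IR29, ranged from -0.24 to -0.073 in the same way, passing without IR29 control replicate 1 or Pokkali control replicate 2. Lsi2 for Pokkali minus IR29 at 3 h passed with a pseudocount of 64 (0.41, adjusted p = 0.034). Among uncalled values, signs turned for NIP2-1, Nonabokra minus Pokkali at 6 h, with quantile normalization (0.036), and without single arrays for Lsi2 in Nonabokra at 6 h (from -0.15 to 0.038) and for unstressed NIP2-2, Nonabokra minus IR29 (from -0.16 to 0.0016).

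With the replicate number as a block over all groups no call of these genes changed, and NIP2-1 in IR29 at 3 h stayed at -4.41. For unstressed Nonabokra minus Pokkali, a block in a fit to those 6 arrays, chosen after seeing the data, left Lsi2 at 0.56 without a call (adjusted p = 0.061), and called 6098 probe sets in place of 11081.

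Counts of called probe sets moved by over 1.5 times mainly where dim probe sets or IR29 entered. In IR29 at 3 h there were 36580, and 20228 with quantile normalization, 19048 without the dimmest 40% and 18732 in a fit to the compared groups. In IR29 at 6 h there were 30525, against 15184, 13473 and 7160, and 18125 or 18474 without control replicate 1 or 6 h replicate 2. For unstressed Nonabokra minus IR29 the count was 32034, against 16102, 14739 and 10495, and 21206 without control replicate 1 of IR29, and for Pokkali minus IR29 it was 35383, against 18419, 17528 and 14252. The response difference of Pokkali from IR29 at 3 h had 26842, against 12296, 11788 and 16999, and that of Nonabokra from IR29 at 6 h had 9286, against 6186 in the compared groups and 16030 without IR29 6 h replicate 1. For 6 h against 3 h, compared groups gave 7540 in place of 12060 in Nonabokra and 3515 in place of 8458 in IR29, and Pokkali had 16146, with 10549 and 10677 without 3 h replicate 3 and 6 h replicate 1. Over the 9 group means, 2 of the 5 genes most like NIP2-2 and 2 of the 5 most like Lsi2 were the same. No gene had another probe set to try, so that alternative was not run.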
